A study of Mus musculus with 5 samples.

Results

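The 3 D-type cyclin genes of the mouse, Ccnd1, Ccnd2 and Ccnd3, were followed in macrophages through 21 h of exposure to lipopolysaccharide (LPS), the endotoxin of Gram-negative bacteria. Every probe whose platform annotation names exactly one of these symbols was taken, which gave 10 probes, 3 for Ccnd1, 6 for Ccnd2 and 1 for Ccnd3, all with a value on every array. They stand among 8637 genes measured on all arrays. The macrophages were grown from bone marrow of C3H/ARC mice with human colony stimulating factor 1 (CSF-1), either untreated (0 h) or exposed to 10 µg per ml of S. minnesota LPS for 0.5, 2, 7 or 21 h. Each time point is 1 two-colour array whose other channel held whole-embryo RNA (C57BL6/J, day 17.5). There are no replicates and hence no p-values, and 5 arrays in all limit how precise any value can be. The labels do not say how many mice supplied the cells or whether CSF-1 stayed in the medium with LPS.

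D-type cyclins are the regulatory subunits that growth factors supply to the kinases Cdk4 and Cdk6. The active kinases phosphorylate the retinoblastoma family of pocket proteins, which frees E2F transcription factors to turn on genes of DNA synthesis and so carries a cell out of G1 phase. In macrophages CSF-1 is the growth factor that maintains cyclin D1 and proliferation, and LPS is known to stop this proliferation.

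All values below are log2 ratios of macrophage over embryo RNA minus the array median. The deposited values were read as log10 and multiplied by 3.32. Base and direction are not stated in the sources used here. Base 10 is inferred from the range of the values, and if the base was 2, every log2 value below would be 3.32 times too large and other genes and runs would pass 2-fold. The direction is likely, since 10 macrophage markers had a median ratio of 2.16 on the 0 h array, while 28 whole-embryo markers had a median of -1.26. With the opposite direction, every sign below would turn. A ratio to embryo RNA does not rank the 3 genes by abundance, so only ratios and their changes are compared. RNA of a whole culture does not tell fewer expressing cells from less RNA per cell.

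Of the 10 macrophage markers 7, 9, 8, 8 and 8 lay above the array median in order of time. High on every array were for example the cathepsin gene Ctss (6.21 at 0 h, 6.84 at 7 h and 7.21 at 21 h) and the lysozyme gene Lyz2 (4.16, 3.94 and 4.03 at the same times), whereas Cd68 lay at -0.49, -0.02 and -0.04. The 14 stromal markers, of cells in which cyclin D1 is also abundant, had medians of -2.73, -3.03, -3.14, -3.20 and -3.03 in order of time. The 4 B cell markers had medians of 0.11, 0.31, 0.47, 0.43 and 0.30, with Cd79b at a log2 change of 2.41 at 7 h. The 3 T and NK cell markers had medians of 0.49, 1.15, 1.35, 0.97 and 0.73. The 6 neutrophil markers had medians of 0.30, 0.52, 0.21, 0.24 and -0.34, and the 7 erythroid markers of -1.62, -1.68, -1.28, -0.96 and -1.34. The part of these cells in the cyclin values was not tested.

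The 0.5 h and 2 h arrays held many high ratios that followed the probe number. Of 207 runs of 96 consecutive probe numbers, 94 were affected, meaning that 10% or more of their probes exceeded the 0 h value by 2-fold or more at 0.5 h or 2 h. Affected runs hold 1 of the 3 Ccnd1 probes, 5 of the 6 Ccnd2 probes and the Ccnd3 probe. Probe values are therefore given one by one below.

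Ccnd1 had the largest change of the family and was lower from 2 h onward. Probe 3522 had log2 ratios of 1.58, 1.96, 0.99, -0.98 and -0.52 at 0, 0.5, 2, 7 and 21 h. Probe 13491 had 1.09, 1.75, 0.78, -0.13 and -0.26. Probe 16404, the one in an affected run, had 1.91, 2.27, 1.10, -1.19 and -0.81. On all 3 probes the ratio was above the array median at 0, 0.5 and 2 h and below it at 7 and 21 h. The 3 probes share each array and its RNA, so they are not replicates. Relative to the median probe of the array, the mean macrophage-to-embryo ratio of Ccnd1 was 2.88 at 0 h, 3.97 at 0.5 h, 1.94 at 2 h, 0.587 at 7 h and 0.693 at 21 h on the linear scale.

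**Figure D1:**
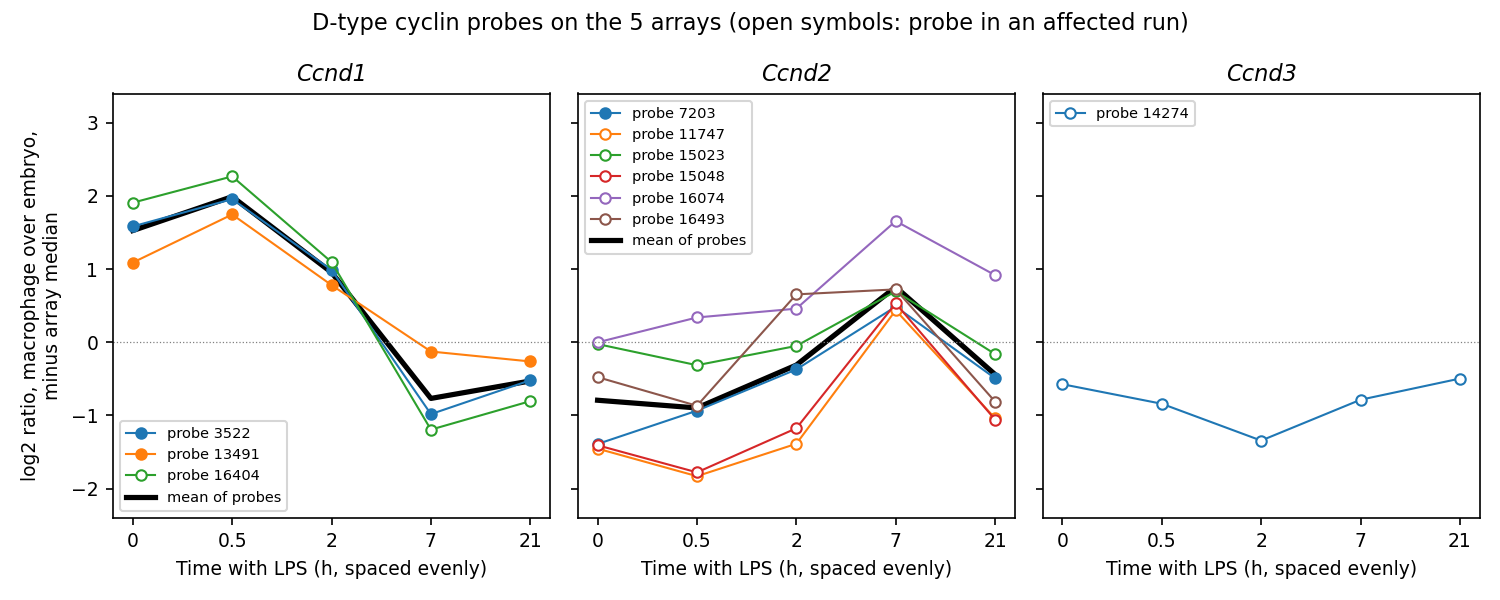
Log2 ratio of macrophage over embryo RNA minus the array median (vertical axis) for each probe of Ccnd1, Ccnd2 and Ccnd3 at 0, 0.5, 2, 7 and 21 h of LPS (horizontal axis, spaced evenly), with 1 array a time. Thin lines are probes, open symbols are probes in affected runs, and the thick line is the mean of the probes; the 3 Ccnd1 probes cross below 0 between 2 h and 7 h, while all 6 Ccnd2 probes have their highest value at 7 h.

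After 0.5 h of LPS Ccnd1 was higher on all 3 probes, but by less than 2-fold. Its log2 change from 0 h was 0.46 (SD over probes 0.17, 3 probes), or 1.38-fold. The spread between probes of 1 array is not an error over animals, and its sources were not tested. Of all genes, 82.6% had a lower change. None of the 10 probes of the family was past 2-fold at 0.5 h, on an array where 5.95% of genes and 6.31% of probes lay at least 2-fold higher and 1.01% and 1.24% at least 2-fold lower. Under quantile normalization the change was -0.93, so its direction at 0.5 h depends on the scaling.

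After 2 h Ccnd1 was lower on all 3 probes, again by less than 2-fold, with a mean log2 change of -0.57 (SD over probes 0.25), 1.49-fold lower than in untreated cells. Against the 0.5 h array the difference was -1.03. The probes ranged from -0.81 to -0.31, and 6.09% of genes had a lower change, on an array where 1.1% of genes and 1.46% of probes were at least 2-fold lower and 12.4% of genes at least 2-fold higher. Quantile normalization put the change at -1.94.

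After 7 h Ccnd1 was 4.91-fold lower than in untreated macrophages. The mean log2 change was -2.29 (SD over probes 0.97), with -2.57 on probe 3522, -1.22 on probe 13491 and -3.10 on probe 16404. All 3 probes were past 2-fold, on an array where 3.16% of genes and 3.86% of probes lay at least 2-fold lower. Ccnd1 was 16th from the lowest of 8637 genes. Among the 1152 genes with 3 or more probes it was the lowest and the only one with every probe at least 2-fold lower (0.0868% of these genes). This comparison was chosen after the Ccnd1 values were known. Ccnd1 has 3 probes, the fewest it takes, and a rule on every probe is easier to meet with fewer probes.

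After 21 h Ccnd1 was still 4.16-fold lower than at 0 h. The mean log2 change was -2.06 (SD over probes 0.68), with -2.10, -1.35 and -2.71 on probes 3522, 13491 and 16404. It was the 9th lowest of all genes, where 1.45% of genes and 2.21% of probes lay at least 2-fold lower. Among genes with 3 or more probes it was again the lowest, and again the only one with every probe past 2-fold (0.0868%). These values share the 0 h array with those at 7 h. Between 21 h and 7 h the difference was 0.24 (SD over probes 0.33), positive on 2 probes and negative on 1, which is smaller than the spread between the probes. Leaving out the affected runs kept 2 probes, with changes of -1.89 at 7 h and -1.73 at 21 h.

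The 3 Ccnd1 probes agreed in direction at each time against 0 h but not in size. Probes 3522 and 16404 differed by at most 0.32 in their ratio on any array. Probe 13491, outside the affected runs, had the narrowest course, and its change differed from that of probe 16404 by up to 1.89. All 3 carry the same RefSeq accession in the annotation.

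Ccnd2 showed the opposite course at 7 h, with a peak that was mostly gone at 21 h. Probe 7203 had log2 ratios of -1.39, -0.94, -0.37, 0.49 and -0.49 at 0, 0.5, 2, 7 and 21 h. Probe 11747 had -1.45, -1.83, -1.39, 0.44 and -1.04, and probe 15048 had -1.41, -1.78, -1.18, 0.53 and -1.06. These 3 probes started more than 2-fold below the array median and lay above it only at 7 h.

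The other 3 Ccnd2 probes started closer to the array median. Probe 15023 had -0.02, -0.31, -0.05, 0.70 and -0.16, probe 16074 had 0.00, 0.34, 0.46, 1.66 and 0.92, and probe 16493 had -0.48, -0.87, 0.65, 0.72 and -0.81. Each of the 6 probes was highest on the 7 h array. On probe 16493 the 2 h and 7 h values differed by 0.07, but this probe lies in an affected run, whose median ratio was 0.24 at 0 h, 0.84 at 2 h and 0.17 at 7 h.

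At 0.5 h the 6 probes of Ccnd2 did not agree in direction. The mean log2 change was -0.11 (SD over probes 0.39), with 2 probes above and 4 below their 0 h value. At 2 h the mean was 0.48 (SD 0.49), with 5 probes above and 1 at -0.03, and 2 probes at or past 2-fold (1.02 on probe 7203 and 1.13 on probe 16493). On that array 12.4% of probes lay at least 2-fold higher. Both early means were smaller than the SD over probes. The probe outside the affected runs gave 0.46 at 0.5 h and 1.02 at 2 h.

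After 7 h Ccnd2 was 2.92-fold higher than in untreated cells. The mean log2 change was 1.55 (SD over probes 0.49), and the probes gave 1.88 (7203), 1.89 (11747), 0.72 (15023), 1.94 (15048), 1.66 (16074) and 1.20 (16493). Of the 6 probes 5 were at least 2-fold higher, on an array where 4.08% of genes and 5.01% of probes were. Ccnd2 was 105th from the highest of 8637 genes. It was 6th of the 1152 genes with 3 or more probes, a comparison chosen after its values were known.

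After 21 h Ccnd2 lay at a log2 change of 0.35 from 0 h (SD over probes 0.52), with 4 probes above and 2 below. The values ran from -0.33 to 0.92, so the mean was smaller than the spread between probes. None of the 6 was past 2-fold, on an array where 3.05% of genes and 3.66% of probes were at least 2-fold higher. The probe outside the affected runs read 0.90. Set against the 7 h array, which does not use the 0 h array, Ccnd2 was 2.29-fold lower at 21 h. That difference was -1.20 (SD over probes 0.38), negative on all 6 probes and past 2-fold on 3 of them. It was the 54th lowest of all genes in this comparison, in which 1.12% of genes and 1.71% of probes were at least 2-fold lower.

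**Figure D2:**
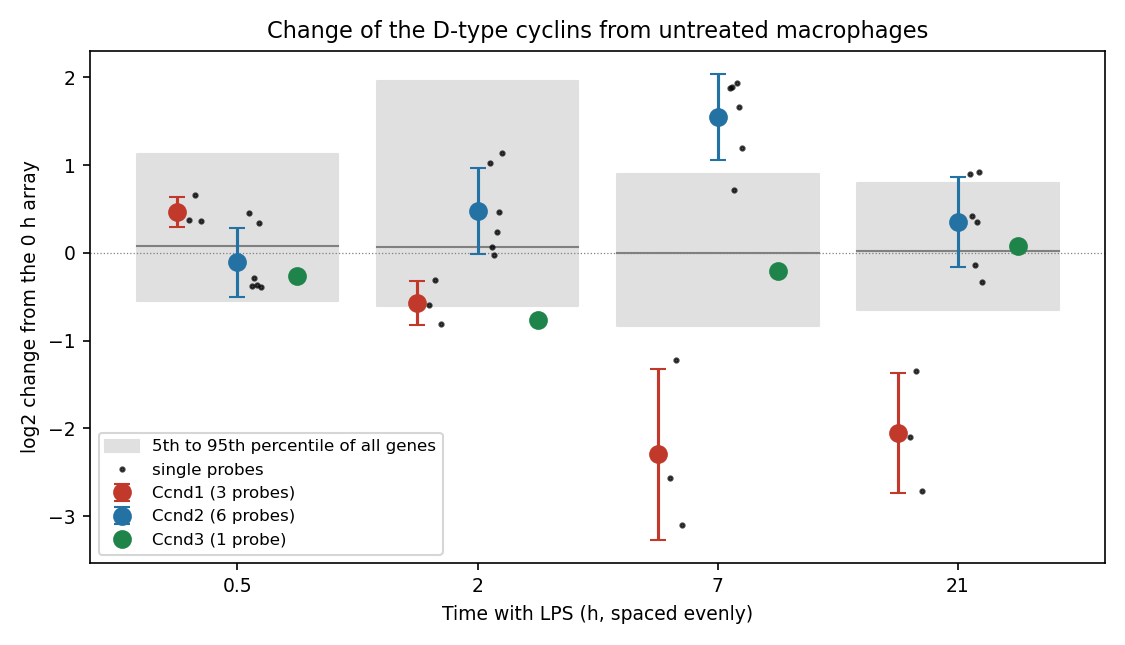
Log2 change from the 0 h array (vertical axis) at 0.5, 2, 7 and 21 h of LPS (horizontal axis, spaced evenly); large symbols are gene means, bars the SD over probes, small black points single probes, and grey blocks the 5th to 95th percentile of all 8637 genes. At 7 h Ccnd1 (-2.29) and Ccnd2 (1.55) lie outside the block on opposite sides, and at 21 h Ccnd1 alone (-2.06) does.

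The Ccnd2 probes were also compared by their annotation. Probes 11747 and 15048 are annotated by clone and expressed sequence accessions and not by the RefSeq transcript. Their ratios differed by at most 0.21 on any of the 5 arrays, although they lie in different runs. Among the 4 probes annotated with the RefSeq transcript, ratios of a pair differed by up to 1.73 on 1 array. At 7 h the mean change was 1.91 on the 2 probes of the first kind and 1.36 on the 4 of the second. The 4 ranged from 0.72 to 1.88, and probe 7203 among them lay close to the first kind in this change. In ratio, both probes of the first kind lay below all 4 of the second at 0, 0.5, 2 and 21 h, but not at 7 h. Probe 7203 was nearly level with them at 0 h (-1.39) but not at 0.5 h (-0.94 against -1.83 and -1.78). The cause of the spread between the probes was not tested.

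Ccnd3 showed its lowest value at 2 h and was back near its starting ratio later. Its probe 14274 had log2 ratios of -0.57, -0.84, -1.34, -0.79 and -0.50 in order of time. The log2 changes were -0.27 at 0.5 h, -0.77 at 2 h, -0.21 at 7 h and 0.08 at 21 h, and at no time reached 2-fold. At 2 h, 1.71-fold lower than in untreated cells, 2.41% of genes had a lower change. With 1 probe there is no SD over probes for Ccnd3. The SD pooled over all genes with several probes was 0.67, 0.97, 0.51 and 0.47 at the 4 times, and each Ccnd3 change was smaller than it. Its sign turned at 7 h against the 0.5 h array (0.05) and at 21 h without centring (-0.07) or with each run centred (-0.09).

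Ccnd1 and Ccnd2 thus moved apart. Their log2 changes differed (Ccnd1 minus Ccnd2) by 0.57 at 0.5 h, -1.05 at 2 h, -3.84 at 7 h and -2.41 at 21 h. At 7 h and at 21 h every Ccnd1 probe lay below every Ccnd2 probe in change from 0 h. All these probes share the same arrays, so this order is a description and not a replicated result. At 21 h the 3 gene means stood at -0.53 (Ccnd1), -0.44 (Ccnd2) and -0.50 (Ccnd3) relative to the array median. At 0 h they stood at 1.53, -0.79 and -0.57.

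Both partner kinases were measured by 1 probe each, in an affected run. Cdk6 had log2 changes of -0.74, 0.24, -1.39 and -0.88 at 0.5, 2, 7 and 21 h, and was at least 2-fold lower at 7 h alone. Cdk4 stayed between -0.37 and -0.22.

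Of the INK4 inhibitors, which bind Cdk4 and Cdk6 and keep D-type cyclins off, Cdkn2b and Cdkn2c were measured. Cdkn2b stood at 2.79 at 2 h, but its 6 probes disagreed (SD 2.97), and at 7 h and 21 h it stood at -0.22 and -0.11. Cdkn2c stood at -0.87 at 7 h (SD 0.91) and -0.79 at 21 h (SD 1.21), within the spread of its 2 probes. The CIP/KIP proteins also inhibit later cyclin complexes. Of these Cdkn1a had 0.35 at 7 h and 0.03 at 21 h, and Cdkn1c had 0.41 and 0.35 on probes that all lie in affected runs. None of these 4 measured inhibitors was past 2-fold at 7 h or 21 h. Over all genes, 4.08% and 3.05% were at least 2-fold higher at these times, and 3.16% and 1.45% lower. Beside these shares, the count does not set the 4 inhibitors apart. Cdkn2a, Cdkn2d and Cdkn1b were not analysed here.

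Downstream of the kinases, the pocket protein gene Rbl2 had changes of -0.17 at 7 h (SD over 3 probes 1.02) and -0.01 at 21 h (SD 0.11). Its probes thus disagreed at 7 h. At 2 h it stood at 0.89 (SD 1.72), and at 1.22 outside the affected runs. Over all genes, 5.95%, 12.4%, 4.08% and 3.05% were at least 2-fold higher at 0.5, 2, 7 and 21 h. At least 2-fold lower were 1.01%, 1.1%, 3.16% and 1.45%. Of the E2F and DP factors 5 were measured and 0 were past 2-fold at any time, which beside these shares does not set them apart. At 7 h the values were 0.33 for E2f1, -0.04 for E2f4, 0.50 for E2f5 and -0.58 for E2f6. The partner Tfdp1 had -0.67 (SD over 2 probes 0.66). At 21 h the 5 values were -0.45, 0.26, 0.26, -0.38 and -0.57 (SD 0.61) in the same order. None of these was near the change of Ccnd1.

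Among 8 measured genes of cyclin D turnover, 0 were past 2-fold at 7 h, beside 4.08% of all genes on the higher side and 3.16% on the lower. Fbxo31, which encodes an F-box protein that recognises cyclin D1, had changes of 2.32, 8.91, -0.35 and 1.43 at the 4 times on 1 probe in an affected run, the only gene of this list past 2-fold at any time. Fbxo4, another F-box gene of this kind, stood at -0.98 at 21 h, and its cofactor gene Cryab at -0.21. Gsk3b, whose kinase marks cyclin D1 for export and degradation, had 0.29 at 7 h and 0.34 at 21 h. Ambra1, which directs degradation of all D-type cyclins, had -0.52 and -0.10, and Usp2, whose product removes ubiquitin from cyclin D1, had -0.37 and -0.15. The ubiquitin ligase genes Btrc and Skp1 had 0.16 and 0.05 at 7 h and 0.15 and 0.27 at 21 h.

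Of 13 measured genes of growth factor input, 3 were past 2-fold on the higher side and 0 on the lower side at 7 h, and 1 on each side at 21 h. The shares over all genes were 4.08% on the higher side and 3.16% on the lower side at 7 h, and 3.05% and 1.45% at 21 h. Of the 9 genes of the list with a probe outside the affected runs, 0 were past 2-fold at 7 h, and 1 was higher and 0 lower at 21 h. Among all 5996 genes with such a probe, 2.87% at 7 h and 1.08% at 21 h were at least 2-fold lower, and 271 and 153 genes higher. Myc, a growth-promoting transcription factor gene downstream of CSF-1, had changes of 1.29, 0.89, -0.91 and -1.66 in order of time. Its single probe lies in an affected run. Myc and Ccnd1 were both above 0 at 0.5 h and both below it at 7 h and 21 h, although at 2 h they lay on opposite sides. Csf1 itself had 0.81, 3.89, 1.42 and 0.41, also on a single probe in an affected run. Map2k1, a kinase that activates the ERK pathway, had 1.34 at 7 h (SD 0.55) and 1.42 at 21 h (SD 0.35), so it lay on the side opposite to Ccnd1.

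The products of the AP-1 genes bind the Ccnd1 promoter, and their part in the Ccnd1 values was not tested. At 0.5 h and 2 h Fos had 2.32 and -0.30 and Junb 1.92 and 1.94, each on 1 probe in an affected run. Jun had 0.25 and -0.07 and Fosl2 0.25 and 0.70 at the same times. Fos had 0.12 at 7 h and 0.27 at 21 h, Jun 0.27 and 0.11, and Fosl2 0.14 and -0.24. Junb was at 1.19 at 7 h and 0.46 at 21 h. The remaining genes of the list, Ets2 (0.69 and 0.15), Stat5b (-0.05 and 0.09), Tcf4 (-0.05 and -0.25), Akt1 (-0.19 and 0.02), Rela (0.15 and -0.18) and Foxo3 (-0.09 and 0.11), were within 2-fold at both times.

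**Figure D3:**
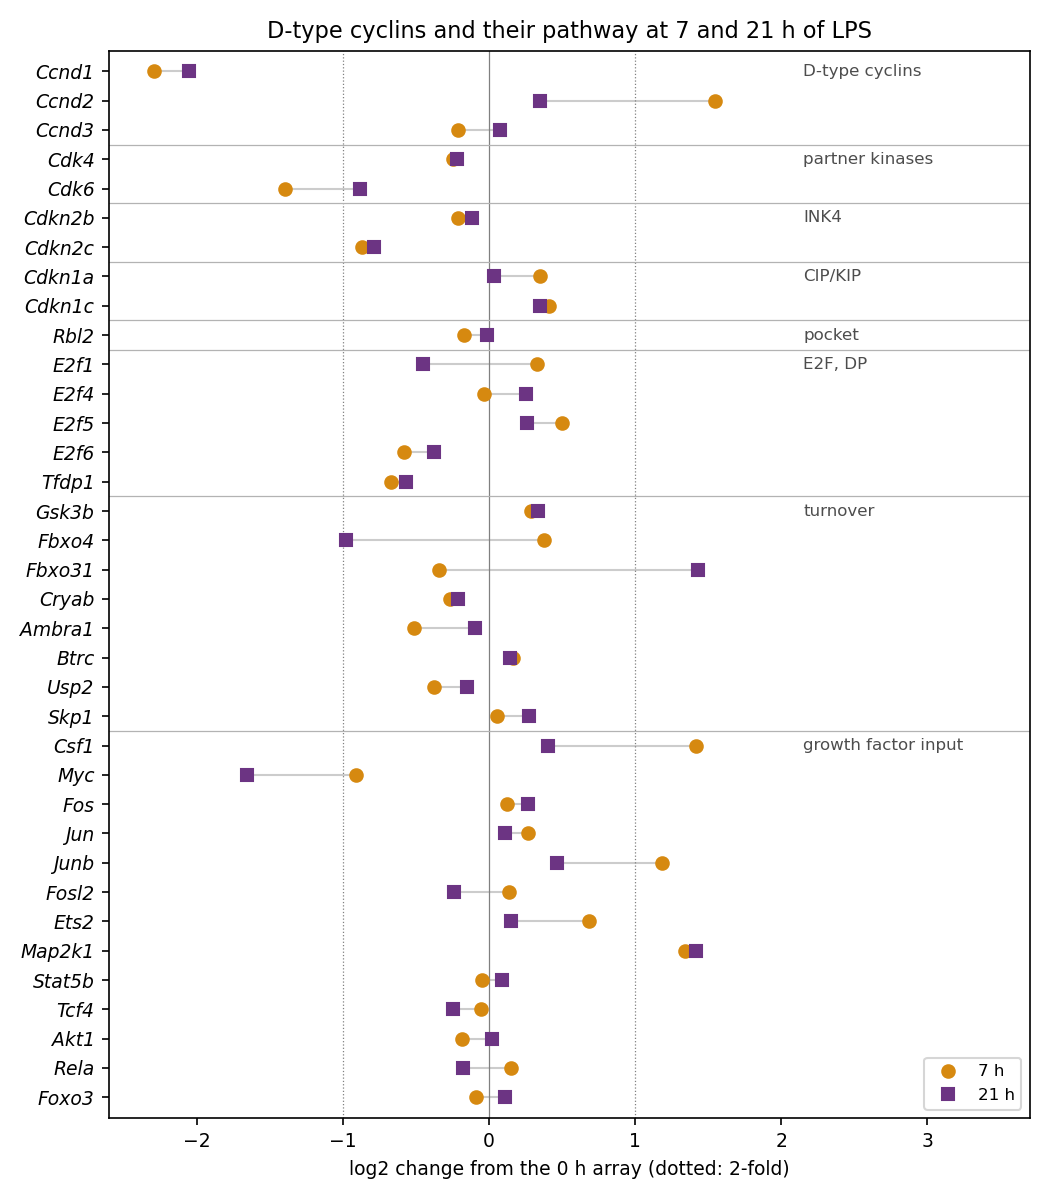
Log2 change from the 0 h array (horizontal axis) at 7 h (circles) and 21 h (squares) for the 3 D-type cyclins and the measured genes of 7 lists of their pathway (rows, grouped by role); dotted lines mark 2-fold and each value is from 1 array a time. Ccnd1 lies below -2 at both times, and Cdk6 at 7 h (-1.39) and Myc at 21 h (-1.66) are the other genes past 2-fold on the lower side.

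The later cyclin genes Ccna2 and Ccnb2 had their lowest values at 21 h. Of 9 other cell cycle cyclins, kinases and their regulators, 1 was at least 2-fold lower at 7 h and 3 at 21 h, with 0 higher at either time, beside 3.16% and 1.45% of all genes on the lower side. Of the 6 genes of this list with a probe outside the affected runs, 0 were past 2-fold at 7 h or 21 h. Among all 5996 genes with such a probe, 2.87% at 7 h and 1.08% at 21 h were at least 2-fold lower, and 271 and 153 genes higher. Beside these shares, 0 of 6 does not set the list apart. The S and G2 phase cyclin gene Ccna2 had -0.70 at 7 h and -1.49 at 21 h, and the mitotic cyclin gene Ccnb2 had -0.66 and -1.73 (SD over 2 probes 1.76). Cks2, a subunit of the kinase complexes, had -1.18 and -1.22, after 1.56 at 2 h. Ccna2 and Cks2 were each measured by 1 probe, in an affected run. The phosphatase gene Cdc25b had -0.53 and -0.97. Of 9 cyclins outside the phases of the cycle, 1 was past 2-fold at 7 h, Ccng2 at 1.23, and 0 at 21 h. Over all genes, 4.08% and 3.05% were at least 2-fold higher at these times. Ccni, Ccnl1 and Ccnt1 had -0.85, 0.40 and -0.36 at 7 h.

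E2F target genes of DNA synthesis had a median change of -0.23 at 7 h and -0.39 at 21 h, against medians of -0.0003 and 0.02 over all genes. Of 33 measured, 6 were at least 2-fold lower at 7 h and 7 at 21 h, with 0 higher at either time. Over all genes, 3.16% and 1.45% were at least 2-fold lower at these times, and 4.08% and 3.05% higher. Tk1, encoding thymidine kinase, had -1.02 and -2.02, the helicase gene Mcm6 -1.10 and -1.79, the ribonucleotide reductase gene Rrm2 -1.49 and -1.48, and Rfc3, a clamp loader gene, -0.32 and -1.26. Each of these 4 has all its probes in affected runs. Of the 18 genes with a probe outside the runs, 1 was past 2-fold on each side at 7 h, and 2 on the lower side and 0 on the higher side at 21 h. Of all genes with such a probe, 2.87% at 7 h and 1.08% at 21 h were at least 2-fold lower. The median change of the 18 E2F target genes was -0.06 at 7 h and -0.24 at 21 h.

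Mitosis genes had a median change of -0.48 at 7 h and -0.53 at 21 h. Of 25 measured, 3 were at least 2-fold lower at 7 h and 9 at 21 h, with 0 higher. Over all genes, 3.16% and 1.45% were at least 2-fold lower at these times, and 4.08% and 3.05% higher. The ubiquitin-conjugating enzyme gene Ube2c had -0.66 and -2.02, the kinetochore gene Knl1 -1.48 and -1.84, and the cohesion gene Cdca5 -1.05 and -1.80. Each of these 3 was measured by 1 probe, in an affected run, and Cdca5 stood at 6.24 at 2 h. Outside the affected runs 0 of 12 were past 2-fold at 7 h and 2 of 12 at 21 h, both lower, with medians of -0.34 and -0.35. Of all genes outside the runs, 2.87% at 7 h and 1.08% at 21 h were at least 2-fold lower.

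Over the 107 distinct genes of all pathway lists, 10.3% were at least 2-fold lower at 7 h and 17.8% at 21 h, beside 3.16% and 1.45% of all genes. At least 2-fold higher were 3.74% and 1.87%, beside 4.08% and 3.05% of all genes. With the 60 genes that keep a probe outside the affected runs, 1.67% were lower at 7 h and 6.67% at 21 h, beside 2.87% and 1.08% of all such genes. The excess of lower genes at 7 h is thus not seen outside the runs. At 0.5 h and 2 h, 9.35% and 11.2% of the 107 genes were at least 2-fold higher, beside 5.95% and 12.4% of all genes. Quantile normalization gave 417 genes higher and 516 lower at 7 h over all genes, against 352 and 273 with median centring.

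Ccndbp1, which encodes a protein that binds cyclin D and was named after its values were seen, had 2 probes that disagreed. The probe outside the affected runs had changes of 0.57 at 7 h and 0.83 at 21 h, and the probe inside them -0.26 and 0.06.

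The genes most like each cyclin in course were sought among the 3015 genes with 2 or more probes, by the root mean square difference between the 4 changes from 0 h. All of these changes share the 0 h array, and likeness over 4 values is a description. Nearest to Ccnd1 were the replication helicase gene Mcm4 (0.80), Tipin (0.81), which encodes a replication fork protein, BC005537 (0.85) and the tubulin gene Tubb5 (0.87). None lay close, since each had a smaller change than Ccnd1 at 7 h and 21 h (-1.25 and -1.14 for Mcm4). At 7 h the SD over probes was 0.10 for Mcm4, 1.31 for Tipin, 0.01 for BC005537 and 0.38 for Tubb5. That of Tipin was larger than its change of -1.12. Both Mcm4 probes and 5 of the 7 Tubb5 probes lie in affected runs. Nearest to Ccnd2 were Ythdf1 (0.25), the receptor tyrosine kinase gene Axl (0.26), Ifrg15 (0.26) and Fbxw2 (0.26). Of these Axl had probes that agreed, with 1.12 at 7 h (SD 0.08) and 0.39 at 21 h (SD 0.19), both outside the affected runs. At 7 h Ythdf1 had 1.28 (SD 1.43) and Fbxw2 1.26 (SD 1.74), so their probes disagreed. Ifrg15 had 1.85 at 7 h (SD 0.04) and 0.45 at 21 h (SD 0.70). Nearest to Ccnd3 were Sdhaf4 (0.08), Cnot8 (0.10), Cyrib (0.10) and Nme7 (0.11).

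Across scalings the late values of Ccnd1 and Ccnd2 kept their side. Over 12 other settings with the values read as log10, the Ccnd1 change lay between -3.36 and -1.89 at 7 h and between -3.17 and -1.73 at 21 h, past 2-fold each time. Over 15 such settings the Ccnd2 change at 7 h lay between 1.33 and 1.88. Leaving out any 1 probe put it between 1.47 and 1.71. Read as base 2, the changes would be -0.69 and -0.62 for Ccnd1 and 0.47 for Ccnd2 at 7 h, which are all under 2-fold.

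**Figure D4:**
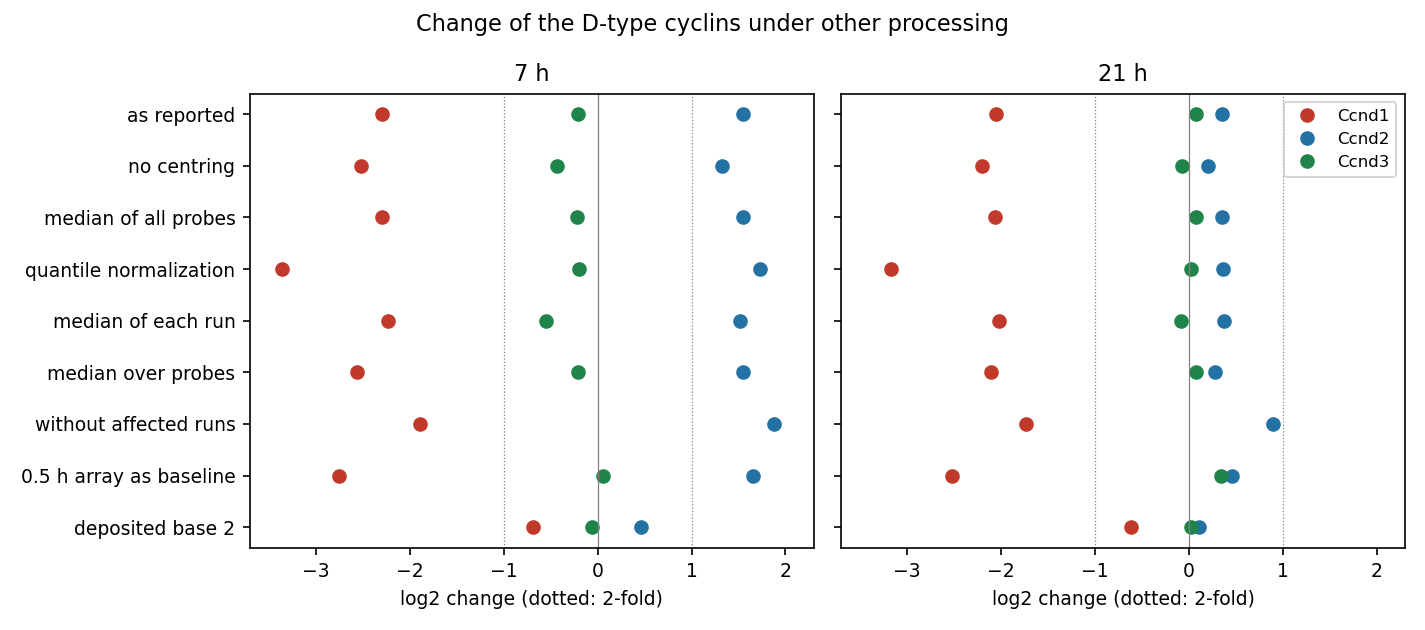
Log2 change from 0 h (horizontal axis) of Ccnd1, Ccnd2 and Ccnd3 at 7 h and 21 h of LPS under each processing (rows); dotted lines mark 2-fold, each point is 1 gene, and Ccnd3 has no value without the affected runs. Ccnd1 stays below -1 in every row except the one that reads the deposited values as base 2, where it is -0.69 at 7 h and -0.62 at 21 h.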

How the data were processed

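Total RNA of macrophages and of whole embryos was turned into cDNA, labelled with dye and measured on two-colour arrays, per the labels. Each deposited value is the log ratio of a probe, read here as log10; the normalization by the authors, the log base and the dye of each channel are not given in the sources used here. Of 19828 probes, 19413, 19351, 19344, 19670 and 19649 had a value in order of time. Gene names came from the platform annotation: 14759 probes had 1 symbol, 170 several and 4899 were unlisted. Of those with 1 symbol, 14628 were found in the RefSeq table of GRCm38.p6 by Entrez identifier. Values were multiplied by 3.32, centred by array on the median of the 18296 probes without a missing value, and averaged per gene. A change of 2-fold was the rule of size. Averaging was tested on simulated data. Python 3.11.15 and pandas 2.3.3 were used. The members, the gene lists, the naming rule and the run rule were chosen with earlier results of these data known. Named were all probes of the 3 cyclins, every measured gene of 7 pathway lists, up to 4 genes of each further list by size of change at 7 h or 21 h, and 4 genes nearest to each cyclin. Alternatives were other centrings, quantile normalization, the median over probes, leaving out probes or affected runs, another baseline, another base and a 1.5-fold rule. Csf1r, Cdkn1b, Rb1 and other listed genes without a value were not analysed here.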

Additional observations from a re-analysis of the deposited data

How the results depend on the processing

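No paired analysis was possible because each time point is 1 array. Read as base 2, the Ccnd1 changes were 0.14, -0.17, -0.69 and -0.62 at 0.5, 2, 7 and 21 h, and its ratios 0.46, 0.60, 0.29 and -0.16 at 0, 0.5, 2 and 21 h; the Ccnd2 ratio and change at 7 h were 0.23 and 0.47, and its 21 h minus 7 h difference was -0.36. This follows from the change of scale. Under quantile normalization the Ccnd1 changes were -0.93, -1.94, -3.36 and -3.17, and its ratios at 0, 0.5 and 2 h were 2.65, 1.73 and 0.71; the cause was not tested. Without centring the Ccnd1 ratio at 2 h was 1.12, and against the 0.5 h array its change at 2 h was -1.03. Without the affected runs the Ccnd2 changes, then from 1 probe, were 0.46, 1.02 and 0.90 at 0.5, 2 and 21 h. Leaving out single probes, the median over probes, centring on all probes or on each run, probes measured on both arrays and, chosen after seeing the data, centring over the 0, 7 and 21 h arrays only moved no change of the 3 cyclins by more than the spread over probes.

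For pathway genes at least 2-fold higher, 10, 12, 4 and 2 at 0.5, 2, 7 and 21 h, the counts were 1, 4, 2 and 1 without the affected runs, where fewer genes are tested, and 21, 24, 8 and 4 at 1.5-fold; quantile normalization gave 3 at 0.5 h and 5 at 2 h, and centring on each run gave 6 at 0.5 h. For those at least 2-fold lower, 0, 1, 11 and 19, the counts were 0, 1 and 4 at 2, 7 and 21 h without the runs, 2, 6, 24 and 29 under quantile normalization and 3, 7, 31 and 31 at 1.5-fold. Over all genes, the higher counts of 514, 1071, 352 and 263 became 77, 253 and 153 at 0.5, 2 and 21 h without the runs, 240 and 430 at 0.5 and 2 h under quantile normalization, and 1098, 1887, 1000 and 788 at 1.5-fold. The lower counts of 87, 95, 273 and 125 became 172 and 65 at 7 and 21 h without the runs, 298, 395, 516 and 391 under quantile normalization, and 378, 493, 930 and 560 at 1.5-fold.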
